A study of Mus musculus with 52 samples.

Results

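Axin2, Nkd1, Notum, Apcdd1, Znrf3, Rnf43, Sp5, Tnfrsf19 and Spock2 are mouse genes whose transcription is known or thought to follow canonical Wnt signaling. They were taken as a list of 9 named genes among the 49585 genes to which the deposited transcript estimates could be summed. The list was chosen with earlier results of these data known. A share of it called above that of all genes is therefore not independent evidence about the list. Their transcripts were followed in the vascular endothelial cells (ECs) of 5 tissues, of which the cerebellum and the cerebral cortex have a blood-brain barrier and the anterior pituitary, the posterior pituitary and the choroid plexus have highly permeable, fenestrated capillaries. The question put to each gene was how far its transcript level in ECs changes when beta-catenin is stabilized there, and whether WT barrier ECs already carry more of it than WT fenestrated ECs.

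The series holds 52 samples of adult male mice in 26 groups with 2 replicates each. For sorted cells, 24 RNA-seq libraries were made from GFP-positive cells (the ECs) and GFP-negative cells (the surrounding tissue) of the cerebellum, anterior pituitary and posterior pituitary, and 12 ATAC-seq libraries from GFP-positive cells of these 3 tissues. All these mice carried Tie2-GFP, a GFP transgene under EC regulatory sequences; the WT mice carried nothing else, whereas those with stabilized beta-catenin had the transgene Pdgfb-CreER and the allele BcatEx3fl as well and received 4-hydroxytamoxifen (4HT). BcatEx3fl is also named Ctnnb1flex3; from it the EC-specific, 4HT-dependent Cre removes exon 3, so that the protein made from it escapes degradation. The other 16 libraries came from RiboTag mice, in which Pdgfb-CreER tags the ribosomes of ECs: the transcripts bound to the tagged ribosomes (bound) and those of the whole tissue (input) were sequenced for the cortex and the choroid plexus. There the WT mice carried RiboTag and Pdgfb-CreER, and the stabilized mice BcatEx3fl in addition, so that Cre was present in both genotypes. In the sorted cells, by contrast, the Cre transgene and 4HT differ along with beta-catenin, and their parts cannot be told apart. Recombination by Pdgfb-CreER can be mosaic, and each pituitary and choroid plexus replicate was a pool of animals.

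In canonical Wnt signaling a Wnt ligand binds Frizzled and LRP receptors, the complex of AXIN, APC and GSK3 that marks beta-catenin for degradation is held back, and beta-catenin enters the nucleus and acts with transcription factors of the TCF/LEF family. Several genes turned on in this way encode inhibitors of the same pathway, which act at the ligand (NOTUM removes the lipid that Wnts need), at the receptors (ZNRF3 and RNF43 send Frizzled to degradation, APCDD1 binds Wnts and LRP), at the degradation complex (AXIN2) or at Dishevelled (NKD1). In brain ECs, Wnt signaling through beta-catenin is known to be needed for the formation and upkeep of the blood-brain barrier. SP5 is a zinc finger transcription factor that acts on TCF/LEF targets, TNFRSF19 (TROY) is an orphan receptor of the TNF receptor family, and SPOCK2 (testican 2) is a secreted proteoglycan.

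Because beta-catenin acts with TCF/LEF factors, the accessible DNA around these genes and its matches to their motif are shown before the values. An ATAC-seq peak was called gained when it was found in both stabilized libraries of a tissue and in neither WT library, and peaks within 50 kb of a gene's body were assigned to it. At 8 of the 9 genes, 20 peaks were gained in both pituitary lobes, and 8 of these 20 also overlapped a peak of both WT cerebellum libraries and held a TCF/LEF core motif near the summit in both lobes. The stretches of those 8 peaks that hold the motifs are printed 5′ to 3′ on the plus strand of GRCm38 (mm10), with the motif CTTTGAA or CTTTGAT, or its reverse complement TTCAAAG or ATCAAAG, in capitals.
Axin2 intron (chr11:108936546-108936592): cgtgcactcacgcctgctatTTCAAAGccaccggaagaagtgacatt
Notum upstream, nearer peak (chr11:120695687-120695832): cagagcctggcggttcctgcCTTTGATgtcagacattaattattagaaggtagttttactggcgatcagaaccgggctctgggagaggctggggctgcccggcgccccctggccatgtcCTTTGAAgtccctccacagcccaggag
Notum upstream, farther peak (chr11:120707298-120707371): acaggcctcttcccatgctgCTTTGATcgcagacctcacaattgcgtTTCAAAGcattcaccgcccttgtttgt
Nkd1 upstream (chr8:88495300-88495399): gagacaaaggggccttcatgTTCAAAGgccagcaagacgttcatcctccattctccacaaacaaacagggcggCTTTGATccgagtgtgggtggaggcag
Znrf3 intron (chr11:5411775-5411847): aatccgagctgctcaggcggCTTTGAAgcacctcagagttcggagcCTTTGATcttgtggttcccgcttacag
Spock2 upstream (chr10:60101768-60101948): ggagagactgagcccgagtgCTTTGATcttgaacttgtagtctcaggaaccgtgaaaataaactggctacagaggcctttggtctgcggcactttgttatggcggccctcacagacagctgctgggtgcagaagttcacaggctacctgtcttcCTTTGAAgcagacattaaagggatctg
Tnfrsf19 intron, farther peak (chr14:60985186-60985232): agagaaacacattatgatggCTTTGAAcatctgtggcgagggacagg
Tnfrsf19 intron, nearer peak (chr14:61012516-61012663): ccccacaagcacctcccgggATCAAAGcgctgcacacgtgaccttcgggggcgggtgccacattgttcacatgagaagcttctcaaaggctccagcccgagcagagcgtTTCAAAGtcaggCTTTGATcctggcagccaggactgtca
The Axin2 stretch lies in an intron, in a peak 16.2 kb downstream of the gene's start. Both Notum stretches lie upstream of Notum within the body of Aspscr1, 34.7 and 46.2 kb from the start of Notum, the Nkd1 stretch 26 kb upstream of Nkd1 and the Spock2 stretch 4.35 kb upstream of Spock2. Those of Znrf3 (33.0 kb downstream of its start) and Tnfrsf19 (33.9 and 61.2 kb downstream) lie in introns. In 6 of the 8 stretches the motif occurred more than once, with 3 copies in the nearer Tnfrsf19 peak. The 8 stretches belong to 6 genes: the peak of Apcdd1 gained in both lobes did not hold the motif near the summit in both, and that of Rnf43 overlapped no WT cerebellum peak. A match of these letters is a description of the sequence, not evidence that a factor was bound there.

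The libraries held 12157485 to 37529274 estimated counts in sorted cells and 6409013 to 21399125 in RiboTag samples. Summed TPM (a level scaled for transcript length and library size) of 8 endothelial markers was 948 to 4403 in GFP-positive and 0.441 to 27.9 in GFP-negative libraries, and 269 to 548 in bound RNA against 15.8 to 36.9 in the inputs. In the posterior pituitary these markers were at 3491 to 4403 TPM in WT and at 1052 to 1120 TPM in stabilized ECs, whereas the ranges of the genotypes overlapped in the cerebellum (1185 to 1664 and 948 to 1211 TPM) and the anterior pituitary (2134 to 2504 and 1738 to 2506 TPM). Plvap, which marks fenestrated ECs, was at 845 to 1160 TPM in WT pituitary ECs, 576 to 660 in stabilized posterior pituitary ECs, 1145 to 1326 in stabilized anterior pituitary ECs and at most 10.7 in WT cerebellum ECs. Transcripts of other cell types were present too. The 7 markers of mural cells (pericytes and smooth muscle) summed to 586 to 713 TPM in WT and 366 to 430 TPM in stabilized cerebellum ECs. In the anterior pituitary they were at 188 to 222 and 171 to 251.5 TPM, and in the posterior pituitary at 83.7 to 157 and 47.6 to 53.7 TPM. Bound cortex RNA held 27.5 to 67.3 TPM of them in WT and 8.2 to 11.8 TPM in stabilized mice. The 5 pituitary hormone markers summed to 4012 to 6730 TPM in anterior and 346 to 3343 TPM in posterior pituitary ECs, and the 5 microglia markers to 76.5 to 134 TPM in stabilized but at most 4.78 TPM in WT pituitary ECs. In the bound cortex libraries neuron markers summed to 1073 to 1262 TPM in WT and 286 to 334 TPM in stabilized mice, oligodendrocyte markers to 1058 to 1113 and 157 to 166 TPM, and microglia markers to 1125 to 1649 and 571 to 599 TPM. Endothelial markers were at 269 to 548 TPM in the same WT and 320 to 330 TPM in the same stabilized libraries, below the microglia markers in both genotypes. Choroid plexus epithelium markers made up 19020 to 20010 TPM of the WT and 11860 to 13440 TPM of the stabilized bound choroid plexus libraries. The part of these cells in the results below was not tested, except where values outside the ECs are given. One stabilized anterior pituitary EC library (replicate 2) carries conflicting labels, anterior in its title and source name and posterior in its tissue field; it was kept as anterior, and where a call that rests on it changes in the fit without it, that is given beside the call. Its pituitary hormone markers, like those of the other stabilized anterior library, lay between 4012 and 4608 TPM, beside 346 to 808 TPM in the stabilized posterior libraries. Ctnnb1 itself was at 245 to 1664 TPM in the EC libraries, and the loss of its exon 3 cannot be read from gene totals.

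**Figure D1:**
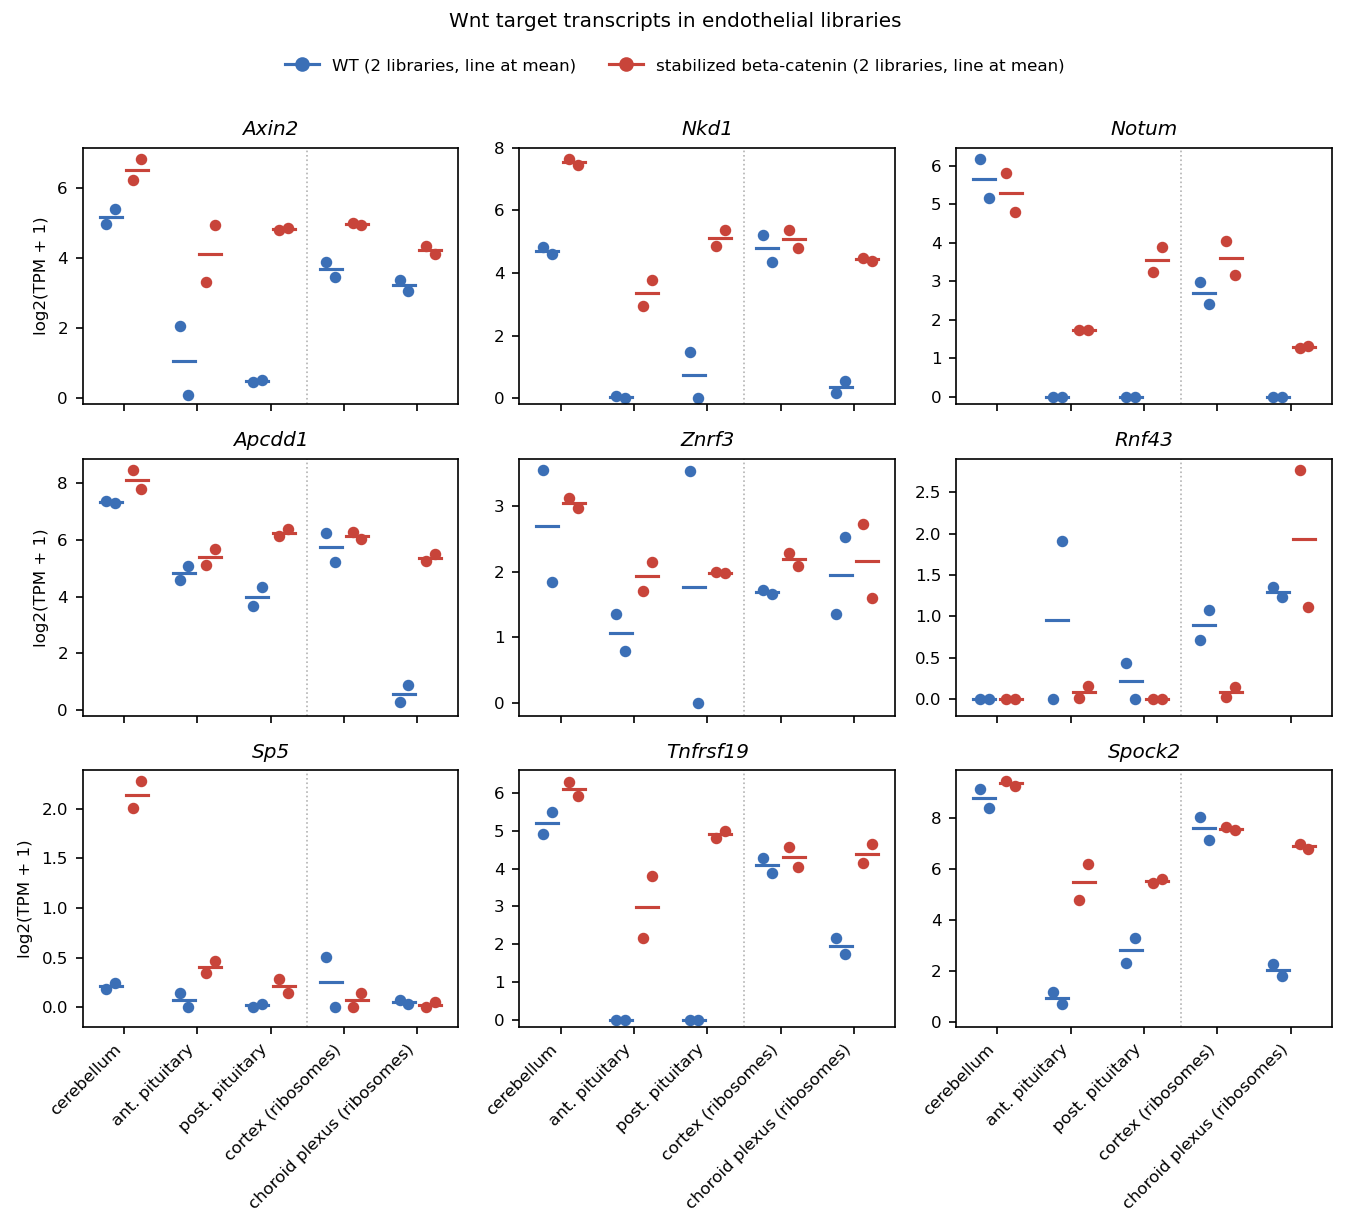
TPM of each gene on a log2(TPM + 1) scale in every EC library of the 5 tissues. Points are libraries, lines are means of 2, WT in blue and beta-catenin stabilized in red, with the RiboTag tissues right of the dotted line. Notum and Tnfrsf19 were at 0 in all 4 WT pituitary libraries and above 2 TPM in all 4 stabilized ones.

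In pituitary and choroid plexus ECs Nkd1, Notum, Tnfrsf19 and Spock2 rose from low or undetected levels, Apcdd1 rose in the posterior pituitary and choroid plexus and Axin2 in the posterior pituitary, whereas in barrier ECs, where the WT TPM of these 6 genes was higher in every library than in fenestrated ECs of the same platform, 0 passed the test in the cerebellum and 3 in the cortex. A gene was called when its adjusted p (edgeR's quasi-likelihood test, Benjamini-Hochberg over all genes tested) was under 0.05 and the change at least 2-fold. By counts Axin2 was called lower in WT cortex than in WT choroid plexus bound RNA, although its TPM was slightly higher, as given below. Of the 9 genes, 6 rose in posterior pituitary ECs (Axin2, Nkd1, Notum, Apcdd1, Tnfrsf19 and Spock2), where 1.25% of 17915 genes were called higher, and 4 in anterior pituitary ECs (Nkd1, Notum, Tnfrsf19 and Spock2), where 0.441% were. Without the library of conflicting labels the anterior count was 5, with Axin2 added. In cerebellum ECs 0 of 9 were called higher, against 0.0670% of all genes. An unadjusted p under 0.05 was found for 2 of the 9, and DESeq2 called 0 as well. Without a filter on low counts Axin2 and Nkd1 were called. Of 8 genes tested in the bound RNA, 5 rose in the choroid plexus (Nkd1, Notum, Apcdd1, Tnfrsf19 and Spock2; 0.656% of 16775 genes) and 3 in the cortex (Axin2, Nkd1 and Apcdd1; 3.65%). None of the 9 genes tested in the sorted ECs, and none of the 8 in the bound RNA, was called lower, where 0.581% (cerebellum), 0.0167% (anterior pituitary), 0.541% (posterior pituitary), 2.67% (cortex) and 0.197% (choroid plexus) of all genes were. Their median log2 fold change was 0.95 in the cerebellum, 3.12 in the anterior and 4.90 in the posterior pituitary, beside -0.08, 0.06 and 0.01 over all genes. In the bound RNA it was 1.14 in the cortex and 3.64 in the choroid plexus with Notum at its lower bound, beside 0 and -0.09. In bulk RNA fewer cells of a type and less RNA per cell cannot be told apart, and p-values here measure the spread between 2 samples per group.

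**Figure D2:**
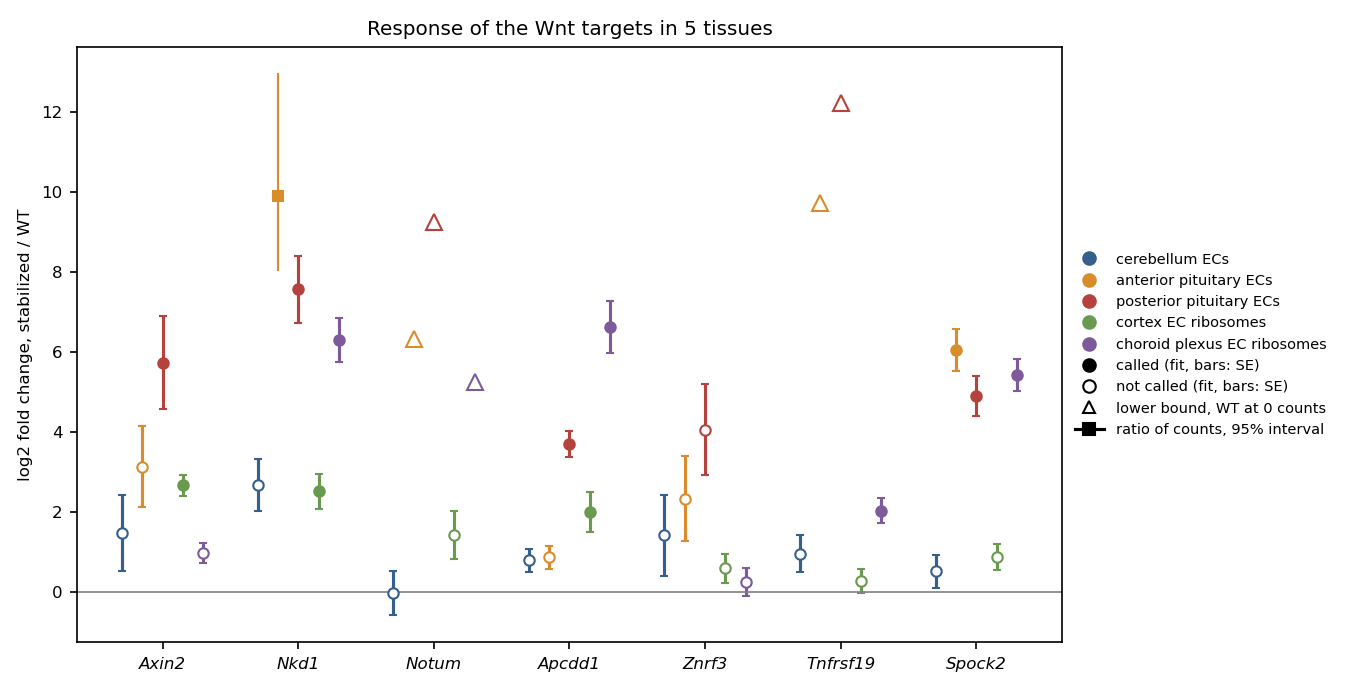
Log2 fold change, stabilized over WT, of 7 of the 9 genes in the 5 tissues; Rnf43 and Sp5 had too few counts and are left out. Circles are fitted values with bars of 1 SE, filled where called; triangles are lower bounds for genes at 0 counts in WT, and the square is a ratio of counts with its 95% counting interval. The cerebellum and cortex values lie below 3, whereas Nkd1 and Spock2 lie above 4 in the 3 fenestrated tissues.

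Axin2 (chr11:108920349-108950783, plus strand) encodes a scaffold of the degradation complex and is the most widely used readout of the pathway. It was at 30.2 and 41.5 TPM in the 2 WT cerebellum EC libraries. The WT anterior pituitary libraries had 3.10 and 0.0474 TPM, and the WT posterior pituitary libraries 0.356 and 0.405 TPM. The cerebellum thus stood above both lobes, whose libraries overlapped each other. With stabilized beta-catenin Axin2 reached 26.7 and 28.1 TPM in the posterior pituitary, a log2 fold change of 5.73 (SE 1.16, adjusted p = 0.0291), which brought its mean level to 76.5% of that of WT cerebellum ECs. In the anterior pituitary it was at 8.97 and 29.6 TPM, above both WT libraries, but the fit did not call it (3.12, SE 1.02, adjusted p = 0.404). The 2 WT anterior pituitary libraries, with 313 and 5 counts, decide this value: without the first of them the log2 fold change was 8.02 and called. It was also called without either stabilized library, at 3.61 and, without the one of conflicting labels, 2.45. The posterior pituitary call in turn was lost without WT replicate 2 (5.50, adjusted p = 0.0833). In the cerebellum the stabilized libraries had 73.9 and 113 TPM, above the WT libraries, with a log2 fold change of 1.47 (SE 0.95, adjusted p = 0.584). Without a filter on low counts this rise was called (1.49, SE 0.374, adjusted p = 0.00484), with nearly the same value and a smaller SE.

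On EC ribosomes Axin2 followed another pattern. Bound cortex RNA held 13.9 and 9.95 TPM in WT and 31.0 and 30.0 TPM in stabilized mice, a rise of 2.66 on the log2 scale (SE 0.27, adjusted p = 0.00119), while bound choroid plexus RNA held 9.35 and 7.31 TPM in WT and 19.5 and 16.4 TPM in stabilized mice (0.97, SE 0.25, adjusted p = 0.128). The response in the choroid plexus was smaller than that in the cortex (difference -1.70, SE 0.36, adjusted p = 0.0466), the opposite order to every other gene called in this comparison. That difference rests on the counts: once the fit took the effective length of the expressed transcripts into account it was -1.19 and no longer called (adjusted p = 0.287), and the call was also lost without either stabilized library of both tissues, without WT choroid plexus replicate 1 and with a replicate block (adjusted p = 0.0585). In WT choroid plexus bound RNA Axin2 was not enriched over the input (-0.05, SE 0.24, adjusted p = 0.932), so that its WT level there is not shown to be that of ECs; the input held 3.37 to 3.74 TPM in both genotypes. By counts Axin2 was lower in WT cortex than in WT choroid plexus (log2 fold change -1.51, adjusted p = 0.0021), but its TPM was not, and the call was lost with the length correction (-0.66).

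Nkd1 (chr8:88521354-88594884, plus strand), whose product binds Dishevelled and dampens the pathway, had a log2 fold change of 2.51 or more in all 5 tissues. WT cerebellum ECs had 27.5 and 23.2 TPM. The WT pituitary was close to empty, with 2 and 0 counts in the anterior libraries and 56 and 1 in the posterior libraries. Stabilized libraries had 6.76 and 12.6 TPM in the anterior and 27.7 and 40.1 TPM in the posterior pituitary, so that no stabilized library overlapped a WT library of its lobe. The anterior rise was a ratio of counts of 961 (95% counting interval 266 to 7943), and the posterior rise 7.56 on the log2 scale (SE 0.84, adjusted p = 0.000544; 0.062 when only those 2 groups were fitted). The WT library with 56 counts sets the size of this value, which was 11.51 without it and 6.75 without the other. In the stabilized posterior pituitary its mean was 134% of the WT cerebellum level, the highest such share in that lobe among the 8 genes detected in WT cerebellum. Cerebellum ECs went from 27.5 and 23.2 to 196 and 174 TPM. This separation of the groups, a log2 fold change of 2.66 (SE 0.66), did not pass the correction over all genes (adjusted p = 0.118), and the gene was called without stabilized replicate 2 and without a filter on low counts. In bound choroid plexus RNA Nkd1 went from 0.122 and 0.465 to 21.5 and 19.7 TPM, a rise of 6.31 (SE 0.55, adjusted p = 0.00194).

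For bound cortex RNA, counts and TPM of Nkd1 part ways. Counts went from 897 and 697 in WT to 2275 and 2129 in stabilized libraries, with a log2 fold change of 2.51 (SE 0.43, adjusted p = 0.0118). The TPM values overlapped, at 36.4 and 19.3 in WT and 40.5 and 26.6 in stabilized libraries. The effective length that goes with them was 917 and 1057 bases in WT and 2343 and 2314 in stabilized libraries. With that length in the fit the change was 1.28 (adjusted p = 0.222) and Axin2 was the only gene still called in the cortex. For Apcdd1, too, the TPM values overlapped there, at 75.4 and 36.1 TPM in WT and 76.6 and 63.8 TPM in stabilized libraries, with a log2 fold change of 1.98 by counts (SE 0.50, adjusted p = 0.0489) and 1.35 with the length correction. Its cortex call was also lost without WT replicate 2, without either stabilized replicate and with a replicate block (adjusted p = 0.0642). The bound cortex libraries of the 2 genotypes differ in their neuron, oligodendrocyte and microglia markers as given above, and the cortex input itself had 8.44% of 16085 genes called higher in stabilized mice, with 0 of the 7 genes tested among them.

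Notum (chr11:120653788-120661175, minus strand), which encodes a secreted enzyme that inactivates Wnts outside the cell, was undetected in every WT fenestrated library: 0 counts in the 4 pituitary and the 2 bound choroid plexus libraries. Stabilized libraries had 2.36 and 2.35 TPM in the anterior pituitary, 8.40 and 13.8 TPM in the posterior pituitary and 1.40 and 1.49 TPM in the choroid plexus. Against a floor of 3 counts for the WT group, this was at least 80.2-fold higher in the anterior pituitary, at least 607-fold in the posterior pituitary and at least 38.0-fold in the choroid plexus. Without the library of conflicting labels the anterior bound was at least 52.5-fold. All 3 rises were called, the anterior and choroid plexus ones no longer when only the 2 groups compared were fitted (adjusted p = 0.201 and 0.0597) and the choroid plexus one not with the length correction either (adjusted p = 0.079). In barrier ECs Notum was not called. WT cerebellum had 70.9 and 35.1 TPM and stabilized cerebellum 54.9 and 26.7 TPM (-0.04, SE 0.56, adjusted p = 1), and bound cortex RNA 6.97 and 4.32 TPM in WT and 15.4 and 7.91 TPM in stabilized mice (1.42, SE 0.60, adjusted p = 0.203). The genotypes overlapped in the cerebellum, while both stabilized cortex libraries stood above both WT libraries. Its levels in stabilized fenestrated ECs stayed at 4.44% (anterior pituitary), 20.96% (posterior pituitary) and 25.6% (choroid plexus) of the WT barrier mean of the same platform.

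Apcdd1, which encodes a membrane inhibitor that acts on Wnts and LRP receptors, differed in response between the lobes. WT anterior pituitary ECs had 23.2 and 32.7 TPM and WT posterior pituitary ECs 11.8 and 18.99 TPM, so that neither lobe was empty. The anterior lobe went to 33.6 and 49.8 TPM (0.86, SE 0.29, adjusted p = 0.460), with all stabilized libraries above all WT libraries by a narrow margin. The posterior lobe rose to 68.7 and 81.8 TPM (3.70, SE 0.32, adjusted p = 7.06e-05). The difference between these responses was 2.84 (SE 0.42, adjusted p = 0.0182), and Apcdd1 was the 1 gene of the 9 whose response was called different between the lobes, against 0.0558% of all genes called higher there. With the length correction it was 2.48 and not called (adjusted p = 0.284). The mean TPM of the posterior lobe went from 15.4 to 75.2, a smaller rise than the fitted 3.70. Under the alternatives that fitted value ranged from 3.07 to 3.84. Cerebellum ECs held 166 and 158 TPM in WT and 348 and 221 TPM in stabilized mice (0.78, SE 0.29, adjusted p = 0.394). In bound choroid plexus RNA the gene went from 10 and 39 counts to 2161 and 2532, or from 0.204 and 0.851 to 37.1 and 44.2 TPM, a rise of 6.62 (SE 0.65, adjusted p = 0.00319).

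Znrf3 (chr11:5276324-5444847, minus strand) and Rnf43 (chr11:87662722-87735539, plus strand) encode a pair of related membrane ubiquitin ligases that remove Frizzled receptors, and neither was called in any of the 5 tissues, though Znrf3 was under some alternatives. Znrf3 counts went from 196 and 199 to 588 and 940 in the anterior pituitary (2.32, SE 1.06, adjusted p = 0.698) and from 181 and 0 to 969 and 1007 in the posterior pituitary (4.05, SE 1.14, adjusted p = 0.113). The 181 counts of the first WT posterior library were assigned to transcripts with an effective length of 343 bases and gave 10.5 TPM, above the 2.99 and 2.92 TPM of the stabilized libraries, so that counts and TPM point in opposite directions. DESeq2 called the posterior change (4.11), as did the fits without either WT posterior library and without a filter on low counts (4.08), the last of which also called the anterior change (2.34, adjusted p = 0.00155), whereas the length correction lowered it to 0.27. In the cerebellum Znrf3 was at 10.7 and 2.57 TPM in WT and 7.74 and 6.87 TPM in stabilized ECs, in the cortex at 2.3 and 2.15 against 3.88 and 3.24 TPM, and in the choroid plexus at 1.55 and 4.78 against 5.60 and 2.01 TPM. These groups overlapped except in the cortex (0.58, SE 0.36, adjusted p = 0.376). Rnf43 had 0 counts in all 4 cerebellum EC libraries and no more than 118 in any EC library. Its few counts in WT pituitary ECs (88 in 1 anterior and 46 in 1 posterior library) were not matched in the stabilized libraries (1 and 17 anterior, 0 and 0 posterior).

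Sp5 (chr2:70474923-70477729, plus strand), the gene of a transcription factor, was scarce throughout, with its highest levels in stabilized cerebellum ECs. There it had 15 and 19 counts in WT and 299 and 314 counts in stabilized ECs, or 0.138 and 0.187 against 3.02 and 3.84 TPM. The fitted change was 4.40 (SE 2.22) with an adjusted p of 0.530. In the anterior pituitary it had 12 and 0 counts in WT and 24 and 35 in stabilized ECs, and in the posterior pituitary 0 and 1 against 19 and 11, a ratio of 35.4 with a 95% counting interval of 5.89 to 1445. No fenestrated library passed 0.384 TPM. In the bound RNA it had at most 15 counts in any library and was not tested.

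Tnfrsf19 (chr14:60963875-61046490, minus strand), the gene of an orphan receptor, was undetected in WT pituitary ECs. It had 29.3 and 44.4 TPM in WT cerebellum ECs and 0 counts in all 4 WT pituitary EC libraries. In stabilized mice it reached 3.48 and 12.9 TPM in the anterior and 26.99 and 31.2 TPM in the posterior pituitary, at least 845-fold and at least 4816-fold higher than the WT floor, and in the posterior lobe 79.0% of the WT cerebellum mean. Without the library of conflicting labels, which had the 12.9 TPM, the anterior bound was at least 426-fold. Both rises were called (adjusted p = 0.000106 and 2.9e-05), the anterior one not when only those 2 groups were fitted (adjusted p = 0.0511). Stabilized cerebellum ECs held 77.9 and 60.3 TPM, above both WT libraries (0.95, SE 0.46, adjusted p = 0.529). In the choroid plexus, where WT bound RNA had 3.51 and 2.33 TPM, it rose to 16.6 and 24.1 TPM (2.03, SE 0.32, adjusted p = 0.0235), a call lost without WT replicate 2 (1.74, adjusted p = 0.0596). In WT choroid plexus Tnfrsf19 was lower in bound RNA than in the input (-1.045, SE 0.27, adjusted p = 0.0153), so that its WT level there is not shown to be that of ECs. Bound cortex RNA had 18.6 and 13.8 TPM in WT and 22.9 and 15.6 TPM in stabilized mice, and the groups overlapped (0.26, SE 0.30, adjusted p = 0.675).

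Spock2 (chr10:60106219-60135198, plus strand), the gene of a secreted proteoglycan of the extracellular matrix, was the most abundant of the 9 genes in barrier ECs, with 554 and 334 TPM in WT cerebellum and 259 and 139 TPM in WT bound cortex RNA. In WT fenestrated ECs it had 1.24 and 0.623 TPM (anterior pituitary), 3.97 and 8.86 TPM (posterior pituitary) and 3.81 and 2.497 TPM (choroid plexus). It rose in all 3, to 26.5 and 71.1 TPM in the anterior pituitary (6.05, SE 0.52, adjusted p = 8.49e-05), 42.0 and 47.1 TPM in the posterior pituitary (4.90, SE 0.49, adjusted p = 0.00023) and 123 and 110 TPM in the choroid plexus (5.41, SE 0.40, adjusted p = 0.00125). In the posterior pituitary mean TPM went from 6.42 to 44.57, a smaller rise than the one fitted to counts. Under the alternatives that fitted value ranged from 3.55 to 5.16. Every stabilized library stood above every WT library of its tissue, yet the pituitary means remained at 11.0% and 10.0% of the WT cerebellum mean and the choroid plexus mean at 58.4% of the WT cortex mean. Of the anterior libraries the one of conflicting labels had the 71.1 TPM; without it the anterior rise was 5.04 (SE 0.39) and the level 5.97% of the WT cerebellum mean. In the cerebellum (686 and 610 TPM) and in bound cortex RNA (196 and 182 TPM) the stabilized levels gave changes of 0.50 (adjusted p = 0.705) and 0.87 (adjusted p = 0.160), the latter called without WT cortex replicate 1 (1.38). The cortex change is one by counts: the TPM of the genotypes overlapped there, and the stabilized mean was 94.9% of the WT mean.

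The size of the response was compared between tissues within a platform by testing the difference of the 2 log2 fold changes, and these comparisons share samples with those above. In the posterior pituitary 5 genes responded more than in the cerebellum: Nkd1 by 4.90 (SE 0.95, adjusted p = 0.0341), Spock2 by 4.39 (SE 0.62, adjusted p = 0.00515), Apcdd1 by 2.92 (SE 0.42, adjusted p = 0.00608), and Notum and Tnfrsf19, whose fitted differences depend on the prior count because WT pituitary ECs had 0 counts. Over all genes 0.860% were called higher in this comparison and the median difference was 0.35. With the length correction only Notum and Tnfrsf19 were called. The value of Nkd1 was 8.84 without the WT posterior library of 56 counts, and not called when only those groups were fitted (adjusted p = 0.0992). Axin2 differed by 4.26 (SE 1.40, adjusted p = 0.214) and was called when only those groups were fitted (4.29, adjusted p = 0.00411) and without a filter on low counts. Between the anterior pituitary and the cerebellum 4 genes differed (0.508% of all genes higher): Nkd1, Notum, Tnfrsf19 and Spock2, the last by 5.54 (SE 0.63, adjusted p = 0.00106; 4.52 without the library of conflicting labels). The call for Nkd1 was lost with the length correction (adjusted p = 0.211). Between the lobes, the posterior minus the anterior response was 2.61 for Axin2 (SE 1.38, adjusted p = 0.608), -2.17 for Nkd1 (adjusted p = 0.678) and -1.15 for Spock2 (adjusted p = 0.599). The Axin2 value was -2.26 without WT anterior replicate 1 and 3.59 without replicate 2. It was called without a filter on low counts (2.62, adjusted p = 0.000244), and with the length correction and no filter (3.43, adjusted p = 0.00314). That of Nkd1 contains a WT anterior group at 2 counts, depends on the prior count and was 1.77 without WT posterior replicate 1. That of Spock2 was -0.12 without the library of conflicting labels, and -2.17 and called with the length correction and no filter (adjusted p = 0.00409). For Notum and Tnfrsf19, at 0 counts in both WT lobes, the fitted difference depends on the prior count. Its computed SE, 5706 and 7320, was too large to be of use, and it was not called (adjusted p = 0.9999 for both). These p-values do not show that the responses were alike. In the choroid plexus 4 genes responded more than in the cortex (0.864% of all genes): Apcdd1 by 4.64 (SE 0.76), Spock2 by 4.55 (SE 0.49), Nkd1 by 3.797 (SE 0.65) and Notum, at adjusted p = 0.0222, 0.00437, 0.0254 and 0.0399. Tnfrsf19 differed by 1.77 (SE 0.43, adjusted p = 0.0760) and was called by DESeq2 (1.83, adjusted p = 0.00787), without a filter (adjusted p = 0.0028), with a replicate block (adjusted p = 0.0475), without WT cortex replicate 2 and without WT choroid plexus replicate 1. Axin2 was called lower, as given above, where 1.28% of all genes were. The call for Notum was lost without either stabilized cortex library, without either WT choroid plexus library, with a replicate block (adjusted p = 0.0557) and with the length correction (adjusted p = 0.137).

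In WT mice the barrier ECs carried more of 6 of the 9 genes than the ECs of either pituitary lobe, namely Axin2, Nkd1, Notum, Apcdd1, Tnfrsf19 and Spock2. Over all genes 3.0% were higher in cerebellum than in anterior and 2.3% than in posterior pituitary ECs. The log2 fold changes over the anterior and posterior lobe were 9.40 (SE 0.60) and 7.53 (SE 0.56) for Spock2, 4.31 (SE 1.07) and 5.76 (SE 1.16) for Axin2, and 3.14 (SE 0.32) and 4.31 (SE 0.33) for Apcdd1. The anterior call for Axin2 (adjusted p = 0.0344) was lost with the length correction (adjusted p = 0.0631) and when only those 2 groups were fitted (adjusted p = 0.169), and the value was 9.19 without the WT anterior library of 313 counts and 3.34 without the other. Nkd1 was higher by a ratio of 3423 (95% counting interval 947 to 28270) over the anterior lobe and by 6.73 (SE 0.81) over the posterior lobe, a value that was 10.66 without the WT posterior library of 56 counts and 5.92 without the other. Tnfrsf19 was at least 5177-fold and at least 3856-fold higher, and Notum at least 1503-fold and at least 1119-fold. The median over the 9 genes was 4.31 and 5.76, beside 0 for all genes in both comparisons. In bound RNA 5 of 8 genes were higher in WT cortex than in WT choroid plexus: Apcdd1 by 5.35 (SE 0.62), Spock2 by 5.24 (SE 0.40), Nkd1 by 4.44 (SE 0.52), Tnfrsf19 by 1.68 (SE 0.31) and Notum at least 44.1-fold. The call for Tnfrsf19 was lost with the length correction (1.29, adjusted p = 0.0564). Axin2 was called lower by counts in this comparison, as given above. There 15.8% of all genes were called higher and 13.9% lower, so that the count says less about the list. Znrf3 had 1060 and 853 counts in WT cerebellum ECs, above all WT pituitary libraries, and was not called (2.38 and 3.45, adjusted p = 0.303 and 0.129). It was called over both lobes without a filter on low counts, over the anterior lobe when only those 2 groups were fitted (adjusted p = 0.042), and over the posterior lobe by DESeq2 (3.47, adjusted p = 0.00609) and without either WT posterior library (12.67 and 2.49), whereas the length correction lowered the posterior value to 0.86.

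Stabilized fenestrated ECs were also set beside WT barrier ECs of the same platform. In the stabilized anterior pituitary 4 genes remained below WT cerebellum ECs (1.90% of all genes were lower): Notum by -4.12 (SE 0.64), Spock2 by -3.36 (SE 0.46), Tnfrsf19 by -2.61 (SE 0.49) and Apcdd1 by -2.28 (SE 0.31). Without the library of conflicting labels these 4 were called too, at -4.78, -4.37, -3.65 and -2.62, and Nkd1 was added (-2.16, SE 0.57, adjusted p = 0.0112). In the stabilized posterior pituitary this was so of Spock2 (-2.63, SE 0.44, adjusted p = 0.00528; 1.54% of all genes were lower), while Axin2 (-0.03, SE 0.93), Tnfrsf19 (0.26, SE 0.46), Nkd1 (0.84, SE 0.62), Apcdd1 (-0.61, SE 0.29) and Notum (-0.84, SE 0.56) did not pass the test. Yet the mean TPM of Apcdd1 there was 46.5% and that of Notum 20.96% of the WT cerebellum mean. For both genes both stabilized posterior libraries had lower TPM than both WT cerebellum libraries. Axin2 was at 76.5%, Tnfrsf19 at 79.0% and Nkd1 at 134%. In the stabilized choroid plexus none of 8 genes was called below WT bound cortex RNA, although both stabilized libraries of Notum and of Spock2 had lower TPM than both WT cortex libraries, and Axin2 (2.48, SE 0.26) and Nkd1 (1.87, SE 0.42) were above it by counts, where 13.0% of all genes were. By TPM, stabilized choroid plexus Axin2 was at 151% and Nkd1 at 74.0% of the WT cortex mean.

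**Figure D3:**
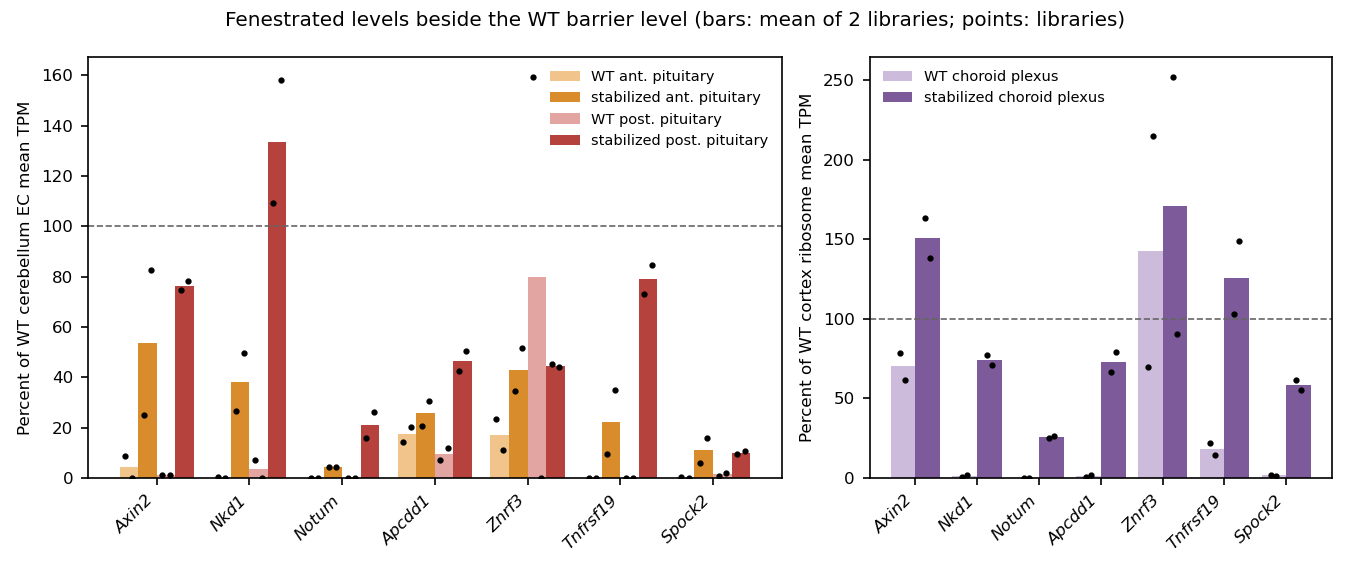
Mean TPM in WT and stabilized fenestrated ECs as a percent of the WT barrier mean, for pituitary ECs against cerebellum ECs (left) and choroid plexus against cortex ribosomes (right). Bars are means of 2 libraries, black points the libraries, the dashed line marks 100%; Rnf43 and Sp5 are left out. Nkd1 in the stabilized posterior pituitary reached 134%, Spock2 10.0%.

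The same contrast was also made outside the ECs. In GFP-negative cells 0 of 9 were called in the cerebellum, anterior pituitary and posterior pituitary, where 0.760%, 0.0408% and 0.133% of 19612 genes were called in either direction by edgeR. At an unadjusted p under 0.05 there were 0, 0 and 2 genes. With shares this low, 0 of 9 says little about these genes. Notum went from 163 to 3 counts in the posterior pituitary, from 159 to 0 in the cerebellum and from 0 to 9 in the anterior pituitary. Nkd1 went from 1 to 45 counts in the posterior pituitary. None of these changes was called. In the inputs 0 of 7 were called in the cortex (11.8% of genes in either direction; 1 of the 7 at an unadjusted p under 0.05) and 2 of 7 in the choroid plexus, Apcdd1 (from 0.0408 and 0.109 to 0.998 and 0.970 TPM) and Spock2 (from 1.45 and 1.17 to 4.03 and 5.31 TPM), where 0.0995% of 16085 genes were called higher. Both inputs contain the RNA of ECs. Within stabilized tissue most of the genes were higher in the ECs than outside them. Nkd1, Notum, Apcdd1, Tnfrsf19, Spock2 and Axin2 were all enriched in the GFP-positive cells of the cerebellum (7.26% of 21343 genes), all but Axin2 in those of the posterior pituitary (5.49%), and all 6 in the bound over input RNA of the cortex (10.1% of 18241 genes) and the choroid plexus (9.35%). In the anterior pituitary this held for Nkd1 and Apcdd1 (5.14%). Without the library of conflicting labels the same 2 were called. Rnf43 was lower in the ECs of the stabilized cerebellum and posterior pituitary, where 9.92% and 5.04% of genes were. With the tissue sample of both fractions as a replicate block, Tnfrsf19 was added in the stabilized anterior pituitary (3.27, SE 0.69, adjusted p = 0.0120) and the cerebellum call of Rnf43 was lost (adjusted p = 0.0669).

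WT fenestrated tissue showed another distribution. Spock2 was lower in the GFP-positive than in the GFP-negative cells of the WT anterior pituitary (log2 fold change -5.45, SE 0.47) and the WT posterior pituitary (-3.68, SE 0.43), the GFP-negative cells holding 23.5 to 39.0 TPM, and Tnfrsf19 was lower in both as well, as were Nkd1 in the anterior and Notum in the posterior lobe (5.87% of genes were lower in the anterior and 7.45% in the posterior lobe). In the posterior lobe the calls of Notum and Tnfrsf19 each rest on 1 GFP-negative library, with 163 and 123 counts, the other and both GFP-positive libraries having 0. Axin2 was lower in the ECs of the WT posterior pituitary (-3.73, SE 1.01, adjusted p = 0.0158), whose GFP-negative cells held 6.75 and 7.82 TPM. Apcdd1 alone of the 9 was enriched in ECs of all 3 sorted WT tissues, by 5.46 (SE 0.92) in the cerebellum, 5.47 (SE 0.93) in the anterior and 8.71 (SE 1.17) in the posterior pituitary, where 4.46%, 5.46% and 7.07% of genes were higher. Nkd1 and Spock2 were enriched as well in the cerebellum. Nkd1 was also called in the WT posterior pituitary, but on the strength of 1 library, with 56 and 1 counts in the GFP-positive and 0 and 1 in the GFP-negative cells. In WT choroid plexus bound RNA none of the 8 genes was enriched over input and Tnfrsf19 was lower (6.64% of genes), whereas in the WT cortex Nkd1, Notum, Apcdd1 and Spock2 were enriched (7.46%). With the tissue sample as a replicate block, Apcdd1 was enriched in WT choroid plexus bound RNA (1.63, SE 0.41, adjusted p = 0.0155) and Tnfrsf19 in WT cerebellum ECs (2.32, SE 0.64, adjusted p = 0.0385), Axin2 was lower in WT anterior pituitary ECs (-4.18, SE 1.25, adjusted p = 0.0487), and the call of Notum in the WT posterior pituitary was lost (adjusted p = 0.0561).

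Other genes of the pathway were compared between stabilized and WT ECs in the same way. From a list of 27 other Wnt targets, 23 could be tested in sorted ECs and 20 in bound RNA. Tcf7, a TCF/LEF factor that is itself a Wnt target, rose in the anterior pituitary (5.56, SE 1.04, from 0 and 0.203 to 2.65 and 3.54 TPM) and in the posterior pituitary (6.81, SE 1.10, from 0.231 and 0 to 2.61 and 4.71 TPM), and was the 1 gene of the list called in each. Without the library of conflicting labels Lef1 (3.69, SE 0.69) and Dkk2, which encode another TCF/LEF factor and a secreted modulator of LRP receptors, were called higher in the anterior pituitary as well. None was called in the cerebellum or choroid plexus. Dkk3, a secreted protein of the Dickkopf family, fell in bound cortex RNA by 2.98 on the log2 scale, from 15.4 and 33.3 to 0.911 and 2.70 TPM. It fell in the cortex input too, by 1.36 (SE 0.32, adjusted p = 0.0188), from 37.2 and 52.5 to 5.16 and 11.2 TPM, where neuron markers summed to 1909 to 2180 TPM in WT and 434 to 581 TPM in stabilized mice; their part in this was not tested. The list's median was 0.70 and 0.78 in the anterior and posterior pituitary, 0.50 in the choroid plexus, -0.34 in the cerebellum and -0.01 in the cortex, beside 0.06, 0.01, -0.09, -0.08 and 0 over all genes. Of 29 genes of the pathway machinery (receptors, Dishevelled, the degradation complex and their regulators), 26 could be tested. By counts Tle1, a corepressor of TCF/LEF factors, was called higher in the posterior pituitary (1.27, SE 0.29), but its TPM went from 21.8 and 24.2 to 19.4 and 18.9. In the cortex the receptor gene Lrp5 was called higher (1.47, SE 0.27) and the corepressor gene Tle4 lower (-1.20, SE 0.27), the TPM of Lrp5 overlapping between the genotypes at 6.50 and 8.44 against 8.38 and 8.47. Over all genes 0.441% were called higher in the anterior and 1.25% in the posterior pituitary. In the cortex 3.65% were called higher and 2.67% lower. From single genes per comparison nothing is read about either list. Between WT tissues more genes of both lists were called, but so were more genes overall: 538 of 17915 higher and 404 lower in cerebellum than in anterior pituitary ECs, 412 and 376 over posterior pituitary ECs, and 2656 and 2334 of 16775 in cortex over choroid plexus ribosomes. Of the other Wnt targets 4 were higher and 2 lower, 2 and 0, and 5 and 4 in these comparisons, and of the machinery 1 and 0, 2 and 1, and 3 and 7, counts from which nothing is read about the lists. In WT ECs Tcf7 and Lef1 were higher in cerebellum than in either lobe, Lef1 at 156 and 120 TPM against 0 and 4.27 (anterior) and 0.258 and 6.04 (posterior). WT cerebellum ECs also held more Dkk2 than anterior pituitary ECs.

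Over the 12 GFP-positive libraries, the genes whose log2(TPM + 1) went most closely with Axin2, of 8934 that had a mean of at least 10 TPM in some group, were Gstm7 (Pearson's r = 0.974), Tnfrsf19 (0.966), Ptn (0.962), Net1 (0.960) and Gatm (0.958). Nkd1 ranked 12 (0.940), Spock2 25 (0.908), Apcdd1 32 (0.890) and Notum 37 (0.883). These values describe 6 groups of 2 libraries that share tissues and genotypes. The likeness of Net1 covers a wide range of levels, with means of 170 TPM in WT cerebellum, 4.73 and 3.32 TPM in WT anterior and posterior pituitary and 384 TPM in stabilized posterior pituitary ECs.

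In WT mice more ATAC-seq peaks lay near the 9 genes in cerebellum than in pituitary ECs. WT cerebellum ECs had 50 peaks within 50 kb of them, found in both libraries, and 24 of these 50 (48%) overlapped no peak in any of the 4 WT pituitary libraries, compared with 10.8% of all 20331 WT cerebellum peaks. At Axin2 this was 5 of 6 peaks, at Tnfrsf19 4 of 5 and at Nkd1 6 of 10, and at Rnf43 and Sp5 none of 1 and 2. WT anterior and posterior pituitary ECs had 31 and 19 peaks near the 9 genes that were found in both libraries of the lobe, of 32728 and 17524 over the genome. None of these lay near Tnfrsf19. As for the transcripts, peak calls depend on the depth of each library, which the peak lists do not give.

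With stabilized beta-catenin the number of peaks near the 9 genes was 74 in the cerebellum, 56 in the anterior and 52 in the posterior pituitary. Peaks over the whole genome became more numerous too. They went from 20331 to 28505 in the cerebellum, from 32728 to 36092 in the anterior and from 17524 to 26074 in the posterior pituitary. Gained peaks numbered 13, 26 and 29 (17.6%, 46.4% and 55.8% of those stabilized peaks). Lost peaks, found in both WT libraries and in neither stabilized one, numbered 1 (Znrf3), 3 (2 at Apcdd1 and 1 at Notum) and 0. Of 17879 genes, 4.24%, 13.4% and 2.81% had a lost peak. Over the genome 17.9%, 7.67% and 28.5% of stabilized peaks were gained. A gained peak lay near 5, 8 and 8 of the 9 genes, where 36.7%, 20.5% and 43.7% of 17879 genes had one. Sp5 had no gained peak in any of the 3 tissues. In the posterior pituitary Znrf3 gained 7 peaks, Tnfrsf19 6, Notum 5, Nkd1 4, Axin2 3, Spock2 2 and Apcdd1 and Rnf43 1 each, and in the anterior pituitary Axin2 gained 5 and Nkd1 3. The 2 gains of Rnf43 in the anterior lobe and its 1 in the posterior lobe came without a called change in its transcript.

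**Figure D4:**
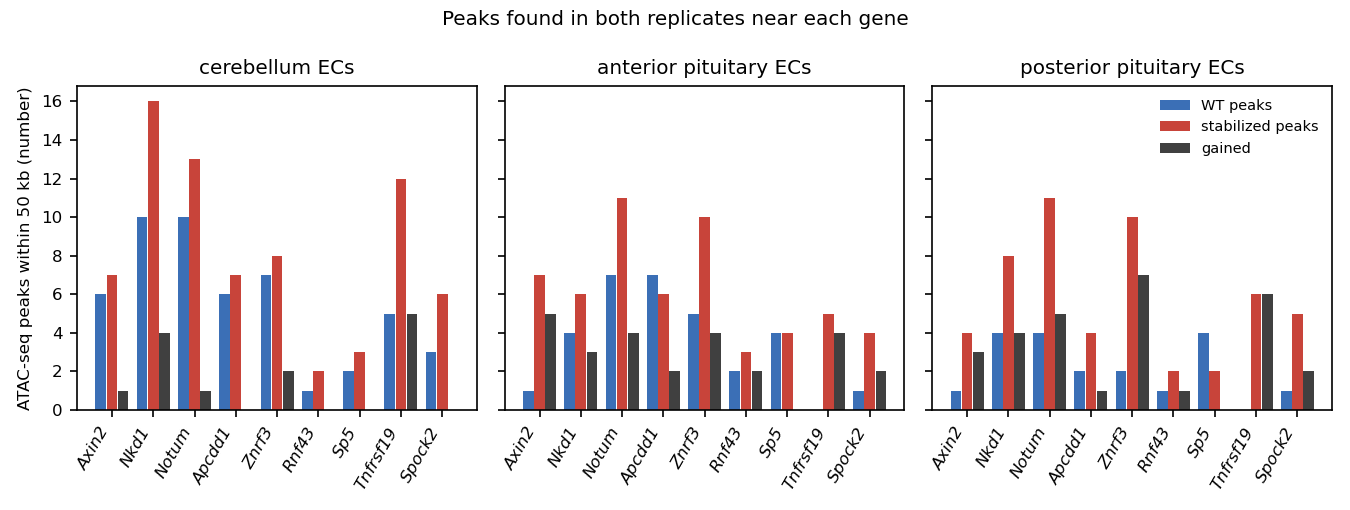
Number of ATAC-seq peaks within 50 kb of each gene that were found in both replicates, in WT (blue) and stabilized (red) ECs, and of gained peaks (dark), in 3 tissues. Tnfrsf19 had 0 WT peaks and 5 and 6 stabilized peaks in the anterior and posterior pituitary.

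The gained pituitary peaks were also set beside those of WT barrier ECs. In the anterior pituitary 15 of 26 overlapped peaks of both WT cerebellum libraries, where 20.3% of all 2767 gained peaks of that lobe did, and in the posterior pituitary 19 of 29, where 30.9% of 7437 did. The TCF/LEF motif, sought on both strands within 100 bp of the summit, was present in 14 of 26 and 19 of 29 gained peaks, and in 5 of the 13 gained in the cerebellum. Over the genome it was found in 21.7%, 15% and 12.9% of gained peaks in the anterior pituitary, posterior pituitary and cerebellum, and in 4.37%, 3.09% and 7.47% of all WT peaks. Of WT peaks near the 9 genes, 3 of 31 in the anterior pituitary, 3 of 19 in the posterior pituitary and 17 of 50 in the cerebellum held it.

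Of the 20 peaks gained in both lobes, 13 overlapped peaks of both WT cerebellum libraries in the calls of both lobes and 12 held the motif in both lobes; 10 were intronic, 9 outside the gene and 1 over an exon. The highest was the nearer intronic peak of Tnfrsf19 printed above with 3 motif copies, with a fold enrichment over the local background of 14.9 and 13.8 in the anterior, 11.2 and 10.6 in the posterior, 14.2 and 14.7 in the WT cerebellum and 17.7 and 17.4 in the stabilized cerebellum libraries. A peak 60.3 kb downstream of the start of Axin2, without the motif, had 13.0 and 13.7 in the anterior, 7.61 and 7.71 in the posterior, 6.79 and 5.86 in the WT cerebellum and 13.9 and 15.5 in the stabilized cerebellum libraries. The Axin2 intron peak printed above had 9.63 and 10.6, 7.64 and 7.03, 6.20 and 5.83, and 11.4 and 11.2 in the same order. Both Axin2 peaks thus had a higher fold enrichment in the stabilized than in the WT cerebellum libraries, without being gained there. The printed Nkd1 upstream peak had 4.88 and 5.98 in the anterior and 8.82 and 5.49 in the posterior libraries, beside 4.80 and 5.79 in WT cerebellum. Fold enrichment is measured against each library's own background and gives no test between libraries.

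**Figure D5:**
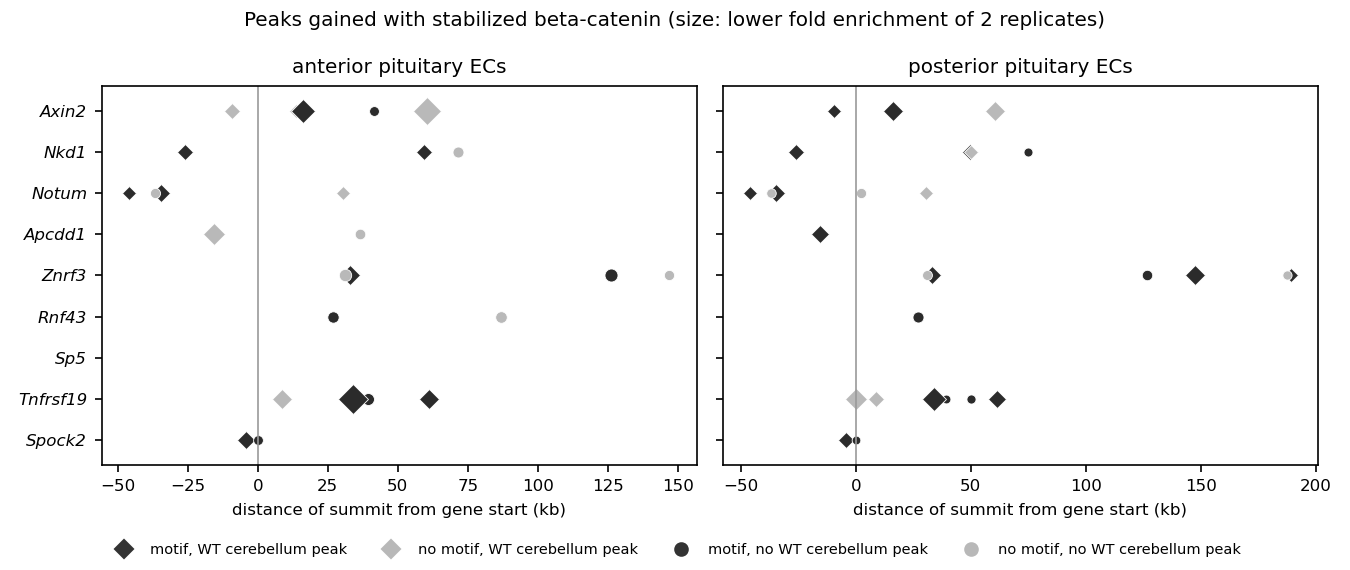
Peaks gained with stabilized beta-catenin within 50 kb of each gene's body in anterior (left) and posterior (right) pituitary ECs, by distance of the summit from the gene's start in kb, positive in the direction of transcription. Diamonds overlap peaks of both WT cerebellum libraries and circles do not; dark symbols hold a TCF/LEF motif within 100 bp of the summit; size follows the lower fold enrichment of the 2 replicates. The largest symbol near Tnfrsf19 is the intron peak 33.9 kb from its start.

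At the promoters themselves, taken from RefSeq (GRCm38.p6) as 250 bases before to 50 after the start, 8 entries for 6 of the 9 genes were found (Axin2, Nkd1, Rnf43, Sp5, Spock2 and Tnfrsf19), and 3 entries held the motif CTTTGAA or CTTTGAT on either strand, compared with 8.65% of 32851 promoters. These were the promoter of Sp5, with the match at -104 from the start, that of Spock2 at -133, and an alternative promoter of Tnfrsf19 (chr14:61037938-61038237) at -202. The Spock2 promoter lay in a peak gained in both lobes (fold enrichment 3.63 and 3.38 in the anterior and 2.98 and 2.32 in the posterior libraries) that was found in neither WT cerebellum library and in both stabilized cerebellum libraries (2.84 in each). The Tnfrsf19 alternative promoter also lay in a peak gained in both lobes (7.56 and 8.05, and 5.50 and 6.73), which in WT cerebellum had 7.30 and 7.23.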

How the data were processed

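Sorted ECs, the cells around them and EC ribosomes were profiled by RNA-seq, and sorted ECs by ATAC-seq. The authors' deposited transcript tables hold expected counts and TPM from Salmon 0.10.2 on an Ensembl 92 (GRCm38/mm10) transcriptome. Names came from GENCODE M21: 130338 of 130740 transcripts were matched, and those without a match held at most 0.385% of a library's counts. Transcripts were summed per gene and expected counts rounded. The deposited peak lists, made by the authors with Bowtie2 2.3.2, Picard and MACS2 2.1.1.20160309 for each library, give fold enrichment (a ratio over local background) and −log10 q; peaks over 2 in both were kept (20634 to 45040 per library). The score column that the authors' caller deposited, 10 times the −log10 q, was not used, and depth beyond the totals is unknown for ATAC-seq.

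edgeR 4.0.16 (R 4.3.3; TMM, filterByExpr, quasi-likelihood test, Benjamini-Hochberg adjustment over all genes tested) was fitted with a mean per group over the 12 GFP-positive (17915 genes) or the 8 bound libraries (16775 genes), and for the other comparisons over the GFP-negative, input, all sorted or all RiboTag libraries. The study's own tool, EBSeq, was not installed. Calls required both a 2-fold change and an adjusted p below 0.05. SE is the log2 fold change divided by the square root of F. Against groups at 0 counts a lower bound was taken from a floor of 3 counts over the group, and with 1 to 3 counts a ratio with a 95% counting interval; both cover counting error only, and fitted fold changes of such genes depend on the prior count. The length correction used the effective length as an offset.

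On simulated counts, 28.0% of genes changed 4-fold and 60.0% of those changed 16-fold were called in the posterior pituitary comparison (17091 genes, 7 false calls), and 36.0% and 76.8% in the choroid plexus comparison (15847 genes, 8 false calls). No libraries were duplicates. The replicate numbers did not pair WT with stabilized samples (correlation of deviations −0.13 to 0.09 over 5 pairs of groups). By the methods, both lobes were separated from the same pituitaries, so that the lobes of a replicate may share animals. Between the lobes this correlation was 0.032 in WT and 0.019 in stabilized ECs, and 0.0099 and 0.27 in the GFP-negative cells. The methods give each input as part of the homogenate used for its bound RNA (correlation 0.083 to 0.28, 4 pairs), while a shared sort of GFP-positive and GFP-negative cells is not stated (−0.045 to 0.15, 6 pairs); both were refitted with the tissue sample as a replicate block. Of the 9 genes, those called were named in every comparison. From the other lists, those called between genotypes in ECs were named and some of those called elsewhere, at most 4 per list and comparison. The 5 genes most correlated with Axin2 were named too. The genes and lists were chosen with earlier results of these data known. Alternatives were DESeq2 1.42.0, other normalization and filters, the length offset, a replicate block, only the groups compared, leaving out each library (a lone sample then being assumed to vary like the other groups), and stricter peaks, other overlaps, a 100 kb window and whole-peak motif searches. One gene of the list of other Wnt targets is not reported here.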

Additional observations from a re-analysis of the deposited data

Results flagged for a closer look

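Fitted differences between the responses of 2 tissues were called for 15 combinations of gene and tissue pair, each tested as an interaction. Between the posterior and the anterior pituitary this was Apcdd1 (2.84). Between the posterior pituitary and the cerebellum the differences were 4.90 for Nkd1, 4.39 for Spock2, 2.92 for Apcdd1, 12.99 for Notum and 14.99 for Tnfrsf19. Between the anterior pituitary and the cerebellum they were 7.07 for Nkd1, 5.54 for Spock2, 9.70 for Notum and 12.13 for Tnfrsf19. Between the choroid plexus and the cortex they were 4.64 for Apcdd1, 4.55 for Spock2, 3.8 for Nkd1, 7.88 for Notum and -1.70 for Axin2. The values of Notum and Tnfrsf19, and that of Nkd1 in the anterior pituitary, contain a WT group at 0 to 2 counts and depend on the prior count, so that their size carries no meaning beyond the bounds given above.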

How the results depend on the processing

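Of the fold changes of the 9 genes recomputed under the alternatives, 989 kept their direction and side of the threshold, 40 lost their call, 40 gained one and 9 reversed; 185 of the counts recomputed stayed within 1.5 times and 24 did not. The cause was not tested unless stated. Of the genes called higher in the cerebellum (0), 2 were called without a filter on low counts, 1 with the length offset and no filter, and 0 to 1 when a library was left out. The 2 cerebellum calls without a filter, Axin2 and Nkd1, came at nearly unchanged values (1.49 and 2.68). Their SEs (0.374 and 0.346) were smaller than in the main fit. In the anterior pituitary (4) 2 were called when only the groups compared were fitted, and in the cortex (3) 1 with the length offset. Different responses of the posterior and anterior pituitary (1) numbered 2 without a filter, 0 with the length offset, 3 with the length offset and no filter and 1 to 2 without a library; of the posterior pituitary and the cerebellum (5), 2 with the length offset; of the choroid plexus and the cortex (5), 3 with the length offset, filtered or not, and 3 to 6 without a library. DESeq2 called 0, 4, 7, 3 and 5 genes in the cerebellum, the anterior and posterior pituitary, the cortex and the choroid plexus. With the replicate number as a block, though the numbers did not pair WT with stabilized samples, the counts were 0, 4, 6, 2 and 5. With crossed numbers, fitted for the RiboTag samples after seeing the data, they were 3 and 5 in the cortex and choroid plexus.

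Gained peaks in the cerebellum (13) numbered 14 to 26 when a library was left out, and in the posterior pituitary (29) 31 to 46, and 18 at the stricter peak threshold; gained peaks with the motif numbered 3 (stricter) and 5 to 11 (without a library) in the cerebellum and 12 (stricter) in the posterior pituitary. Reversed values were those of Znrf3 between the posterior and anterior pituitary (-1.04 with the length offset, filtered or not) and between the posterior pituitary and the cerebellum (-0.022, and -0.032 without a filter), and between the lobes, over the fits without a library, of Axin2 (-2.26 to 3.59; reversed without WT anterior replicate 1), Nkd1 (-5.02 to 1.77) and Rnf43 (-13.55 to 1.85; both reversed without WT posterior replicate 1), and of Rnf43 in the choroid plexus with the length offset (1.32, and 1.33 without a filter). For enrichment in the sorted and tagged cells, a replicate block by tissue sample, added after seeing the data, took the genes called in the WT choroid plexus from 1 to 2 and changed 5 other calls, given above; 1 call each was lost in the WT posterior pituitary and the stabilized cerebellum. Fits without the library of conflicting labels, in comparisons with no other alternative, were also added after seeing the data. Alternatives were not run for GFP-negative cells and inputs between genotypes. Genes with few counts (Sp5, Rnf43 and the WT pituitary levels of Nkd1, Notum and Tnfrsf19) are limited by depth.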
